A study of Oryza sativa Japonica Group with 29 samples.

Results

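The genes described here are 5 basic leucine zipper (bZIP) transcription factors of the abscisic acid (ABA) response and VP1, a factor of the B3 family, in rice roots. They were taken by locus identifier: ABF1, also called bZIP12 (LOC_Os01g64730), TRAB1 (LOC_Os08g36790), bZIP46 (LOC_Os06g10880), bZIP72 (LOC_Os09g28310), ABI5, also called bZIP10 (LOC_Os01g64000), and VP1 (LOC_Os01g68370). All 6 were among the 55986 loci listed, and 5 of the 6 were among the 23699 loci that reached 1 TPM in at least 2 libraries and were tested. TPM is a read share corrected for transcript length and scaled to the same total in every library, so levels of different genes can be compared on it. VP1 was below that minimum and is described by its values.

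In the deposited coordinates, whose genome build is not given in the sources used here, 3 of the genes lie on chromosome 1: ABI5 on the plus strand from 37174547 to 37176550, ABF1 on the minus strand from 37556674 to 37560104, and VP1 on the minus strand from 39723155 to 39726988. bZIP46 lies on chromosome 6 (5677080 to 5682126), TRAB1 on chromosome 8 (23234397 to 23240846) and bZIP72 on chromosome 9 (17189976 to 17194013), all on the plus strand. None of the 6 overlapped another listed locus, and the values below are for whole genes.

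RNA was sequenced from roots of 25-day-old seedlings at the 4-leaf stage, grown in hydroponic culture. Plants of the cultivar ZH11 (wild type, WT) were set against plants over-expressing OsNMCP1 (OE), a gene for a lamin-like protein found at the edge of the nucleus. Watered roots (normal) and roots kept without water for 3 h (drought) were sampled, and the normal condition had 3 WT and 2 OE libraries and the drought condition 3 of each. The labels state neither the promoter of the transgene nor how many OE lines were used. They do not say that replicates came from separate cultures, so p-values cover only the spread among the libraries at hand, which may be technical. Genomic DNA is entered as the molecule of the 6 drought libraries, although their titles name RNA-seq and their extraction protocol is for RNA. The normal and drought RNA libraries also stand in separate blocks of sample numbers. Any difference between these blocks coincides with drought, so the blocks and drought cannot be told apart.

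ABA is the hormone of water deficit. When it is perceived, clade A protein phosphatases 2C stop restraining SnRK2 kinases, and the kinases phosphorylate bZIP factors of this group, which bind ABA-responsive elements in the promoters of dehydrin, LEA and other stress genes. VP1 is best known from seeds, where it acts with TRAB1 on maturation genes such as the Em gene EMP1. Much of the regulation of these factors lies in phosphorylation and partner proteins, which RNA levels do not measure.

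Sequencing depth, estimated from the deposited coverage and FPKM values, was 5.79 to 11.95 Gb per library, and 20110 to 21812 loci reached 1 TPM. OsNMCP1 was at 28.1 to 46.4 TPM in the 6 WT libraries, at 167 and 184 TPM in watered OE roots and at 347 to 452 TPM in droughted OE roots, in the direction of the labels. The third WT drought library was unlike its group, with r of 0.927 and 0.944 to the other two across genes, against 0.982 between WT drought replicates 1 and 2, 0.961 to 0.976 within OE drought and 0.995 to 0.996 within WT normal. The silicon transporters LSI1 and LSI2 were the 2 of 5 root marker loci whose names were accepted. They summed to 1893 to 1939 TPM in watered WT roots and 1710 to 1870 TPM in watered OE roots. Their sums were 536 to 609 TPM in droughted WT roots and 91.9 to 251 TPM in droughted OE roots. The leaf photosynthesis genes CAB1R, CAB2R and RBCS summed to 799 to 1115, 328 to 330, 317 to 592 and 43.6 to 186 TPM in the same order, with none of them at 0. Among the root marker loci whose names were not accepted, those listed as RCC3 and AMT1-2 were also lower in drought in both genotypes. The fall of RCC3 was 1.52 times in WT and 3.19 times in OE. The locus listed as PT2 overlapped between drought and normal libraries in both genotypes. In watered roots AMT1-2 was 3.25 times lower in OE than in WT (log2 difference -1.36, limma adjusted p = 7.01e-05), while RCC3 and PT2 did not pass. Whether these shifts had a part in the results below was not tested. In bulk roots, fewer cells of a type and less RNA per cell cannot be told apart.

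In watered WT roots the 5 bZIP genes were expressed at similar, moderate levels, between 18.7 and 31.2 TPM in every library. TRAB1 had the highest mean, at 30.0 ± 1.1 TPM (SD, n = 3), followed by ABI5 at 29.4 ± 1.1, bZIP72 at 25.1 ± 0.127, ABF1 at 24.3 ± 0.916 and bZIP46 at 19.0 ± 0.313. The ranges of TRAB1 and ABI5 overlapped, and TRAB1 was the higher in 1 of 3 libraries, so these neighbours in the order did not differ beyond their spread. The ranges of bZIP72 and ABF1 also overlapped, although bZIP72 was the higher in 3 of 3 libraries. bZIP46 lay below the other 4 in all 3 libraries. After drought this near-equal set had spread out, and in OE drought libraries the means ran from 4.98 TPM for ABI5 to 102.3 TPM for ABF1.

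**Figure D1:**
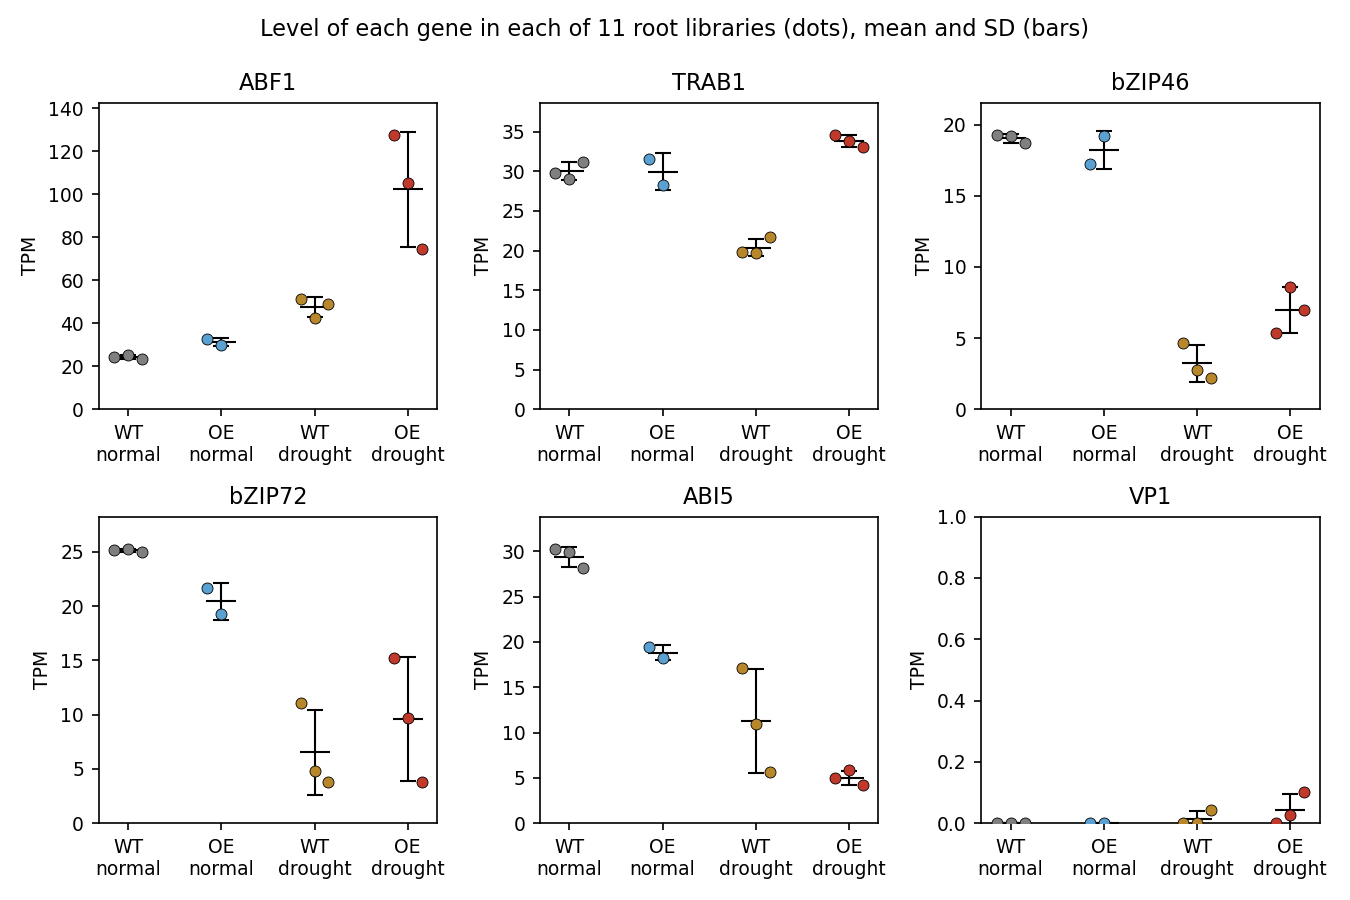
RNA level in TPM (vertical axis, linear, from 0, with its own scale in each panel) of the 6 genes in the 11 libraries; each point is a library, coloured by group, and the bars are the group mean and its SD. ABF1 is highest in OE drought libraries, at 74.4 to 127 TPM, bZIP46, bZIP72 and ABI5 are highest in normal libraries, and VP1 never exceeds 0.102 TPM.

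ABF1 is induced by ABA and by water deficit and acts as a positive regulator of drought tolerance in rice. In watered roots its level was 24.4, 25.2 and 23.4 TPM in WT and 32.4 and 29.8 TPM in OE. After drought it was 51.1, 42.5 and 49.1 TPM in WT and 127, 105 and 74.4 TPM in OE. The 4 groups did not overlap and rose in level from watered WT to watered OE, then droughted WT, then droughted OE roots. In normal conditions the mean TPM in OE was 1.28 times that in WT, a difference of 0.34 on the log2(TPM + 1) scale (SE 0.073, limma adjusted p = 0.00477). After drought it was 2.15 times higher in OE (log2 difference 1.06, SE 0.214, adjusted p = 0.00721). Its mean in drought was 1.95 times the normal mean in WT (log2 difference 0.94, SE 0.158, adjusted p = 0.000414). In OE it was 3.29 times the normal mean (1.65, SE 0.162, adjusted p = 5.6e-06). The drought response was larger in OE by 0.72 (95% confidence interval 0.22 to 1.22, adjusted p = 0.0446). That last call was lost in 10 of 18 alternative analyses, with adjusted p up to 0.157, and the call in normal conditions was lost when the larger spread of the drought libraries was not modelled (adjusted p = 0.618).

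TRAB1 was found as a partner of VP1 and is activated by phosphorylation after ABA. In normal conditions its level was 29.8, 29.1 and 31.2 TPM in WT and 31.6 and 28.3 TPM in OE, so the OE libraries lay on either side of the WT range. The log2 difference was -0.01 with a 95% confidence interval of -0.14 to 0.13 (adjusted p = 0.955). After drought it was 19.8, 19.7 and 21.7 TPM in WT and 34.5, 33.8 and 33.0 TPM in OE. Every OE drought library was thus above every WT library of either condition, and every WT drought library was below all others. TRAB1 fell in WT drought (log2 difference -0.54, SE 0.129, adjusted p = 0.00383), and after drought it was 1.66 times higher in OE than in WT (0.70, SE 0.175, adjusted p = 0.018). In OE the drought response was 0.17 (95% confidence interval -0.12 to 0.46, adjusted p = 0.26), and the responses of the genotypes differed by 0.71 (SE 0.185, adjusted p = 0.0208). 

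The drought response of TRAB1 depended on the scaling of the libraries. When they were scaled so that the median gene did not move, the response in WT was -0.15 (adjusted p = 0.331) and that in OE was 0.82 (adjusted p = 0.000239), while the difference between the responses was 0.97. Both calls that set OE against WT after drought, the difference itself and the difference between responses, were lost when the first or second library of either drought group was left out, with adjusted p of 0.0662 to 0.0803 for the former and 0.0672 to 0.08 for the latter.

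bZIP46 is a positive regulator of drought tolerance whose activity is held back by the adaptor protein MODD. It had the largest proportional fall in WT among the members. Its level was 19.2, 19.2 and 18.7 TPM in WT normal and 17.3 and 19.2 TPM in OE normal libraries. After drought it was 4.66, 2.77 and 2.22 TPM in WT and 5.32, 8.57 and 6.96 TPM in OE. Normal and drought libraries were far apart in both genotypes, and each OE drought library was above each WT drought library. The mean was 5.92 times lower after drought in WT (log2 difference -2.29, SE 0.192, adjusted p = 3.2e-06) and 2.62 times lower in OE (-1.29, SE 0.196, adjusted p = 0.000126). Watered OE and WT roots differed by -0.06 (95% confidence interval -0.26 to 0.13, adjusted p = 0.641). Droughted OE roots held 2.16 times the WT level (0.94, SE 0.259, adjusted p = 0.0276), and the fall was smaller in OE by 1.00 (SE 0.274, adjusted p = 0.0257). The difference between genotypes after drought was not called without WT drought replicate 2 (adjusted p = 0.0982), without OE drought replicate 2 (0.134) or when only the 6 drought libraries entered (0.0707), and the difference between the responses was lost without the same replicates (0.0888 and 0.113) or without modelling the larger drought spread (0.0655).

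bZIP72 binds ABA-responsive elements, and its over-expression raises drought tolerance in rice. It stood at 25.2, 25.2 and 25.0 TPM in WT normal and 21.6 and 19.2 TPM in OE normal libraries. After drought it was 11.04, 4.78 and 3.77 TPM in WT and 15.2, 9.65 and 3.83 TPM in OE. The drought libraries were all below the normal ones, but they spread widely, and the genotypes overlapped. The mean was 3.85 times lower after drought in WT (log2 difference -1.92, SE 0.322, adjusted p = 0.000397) and 2.13 times lower in OE (-1.18, SE 0.329, adjusted p = 0.00703). Without OE drought replicate 3 the value in OE was -0.70 (adjusted p = 0.0627), and with median scaling -0.57 (adjusted p = 0.17). OE against WT did not pass in normal conditions (-0.29, 95% confidence interval -0.62 to 0.04, adjusted p = 0.17) or after drought (0.44, -0.51 to 1.40, adjusted p = 0.499), and the latter moved between 0.05, without OE drought replicate 1, and 0.93, without OE drought replicate 3. The responses of the genotypes differed by 0.73 (-0.28 to 1.75, adjusted p = 0.284).

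ABI5 takes its name from the Arabidopsis factor of ABA-controlled seed germination. It was the member that passed as lower in OE roots in normal conditions. Its level was 30.2, 29.9 and 28.2 TPM in WT and 19.4 and 18.2 TPM in OE, with no overlap. After drought it was 17.1, 10.98 and 5.65 TPM in WT and 4.94, 5.82 and 4.19 TPM in OE. WT drought replicate 3 lay within the OE range, and the other two WT drought libraries lay above it. The level in watered OE roots was 1.56 times lower than in WT (log2 difference -0.62, SE 0.108, adjusted p = 0.00132). That call, like the one for ABF1, was lost without modelling the larger drought spread (adjusted p = 0.56). ABI5 fell in drought in both genotypes, by 2.61 times in WT (-1.43, SE 0.233, adjusted p = 0.00033) and by 3.78 times in OE (-1.74, SE 0.238, adjusted p = 6.16e-05).

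After drought the log2 difference of ABI5 between OE and WT was -0.93 (95% confidence interval -1.62 to -0.23), which did not pass the adjustment over all genes (adjusted p = 0.0591). Without WT drought replicate 3 it was -1.31 (adjusted p = 0.00201), and without WT drought replicate 1 it was -0.59. The drought responses differed by -0.31 (-1.04 to 0.43, adjusted p = 0.546), so a different response was not detectable for ABI5.

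VP1 was listed at 0 in all 5 normal libraries and in 3 of the 6 drought libraries. The remaining values were 0.0432 TPM in WT drought replicate 3, 0.0265 TPM in OE drought replicate 2 and 0.102 TPM in OE drought replicate 3. Its mean read coverage reached at most 0.459, against 10.87 to 443 for the 5 bZIP genes, so no difference in VP1 between groups was detectable at this depth. EMP1, the Em gene on which VP1 and TRAB1 act in seeds, was listed at 0 to 0.45 TPM in the 8 libraries of the other groups and at 7.37, 6.86 and 8.05 TPM in droughted OE roots. It was higher in OE than in WT after drought by 2.72 on the log2 scale (SE 0.328, adjusted p = 0.00048), a call lost in 1 of 19 alternative analyses, with a pseudocount of 0.1 (adjusted p = 0.0522). Of the B3 relatives of VP1, LFL1 reached at most 0.0397 TPM. IDEF1, a regulator of the iron deficiency response, was at 9.94, 7.97 and 18.3 TPM in WT drought and 26.7, 26.2 and 23.7 TPM in OE drought libraries (1.1, SE 0.294, adjusted p = 0.0242), a call lost in 5 of 19 alternative analyses.

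Counted over the comparisons, 2 of the 5 tested bZIP genes passed in OE against WT in normal conditions, ABF1 higher and ABI5 lower, where 31.2% of all tested genes passed (19% higher and 12.2% lower). After drought 3 of 5 were higher in OE and none was lower, where 6.97% of all tested genes were higher, 13.8% were lower and 20.7% passed in either direction. The median of the 5 log2 differences was 0.70 there, beside -0.20 for all tested genes. Drought against normal gave 1 higher and 4 lower in WT, where 64.3% of all tested genes passed (20.5% higher and 43.7% lower). In OE it gave 1 higher and 3 lower, where 73.3% passed (20.8% higher and 52.5% lower). The count in OE was near the background. In WT 5 of 5 passed beside a background of 64.3%, and whether that exceeds the background was not tested. In both genotypes lower calls outnumbered higher ones, as among all tested genes. The responses of the genotypes differed for 3 of 5, all in the positive direction, where 5.9% of all tested genes passed in that direction, 15.1% in the negative and 21% in either. The count of 3 after drought became 1 without WT drought replicate 2 or OE drought replicate 2. The count for the responses became 0 without either of those libraries, and 1 without replicate 1 of either drought group or without modelling the larger drought spread.

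The comparisons share libraries, so the members' values stand side by side and are not independent. In normal conditions ABF1 was higher in every OE library than in every WT library, and bZIP72 and ABI5 were lower, where 57% of all tested genes did not overlap (32.6% higher and 24.4% lower). After drought ABF1, TRAB1 and bZIP46 were higher in every OE library and none of the 5 was lower, where 40% of all tested genes did not overlap (12.4% higher and 27.7% lower). Drought and normal libraries were separate for all 5 genes in WT, 1 higher and 4 lower, where 73.6% of all tested genes were (23.7% higher and 49.9% lower). They were also separate for all 5 in OE, 2 higher and 3 lower, where 82.8% were (24.4% higher and 58.4% lower). Genes called higher made up 33.6% of all calls in OE against WT after drought, and 57.3% with median scaling. The same shares were 32.0% and 51.7% for drought in WT, 28.4% and 51.6% for drought in OE, and 28.1% and 50.6% for the difference between the responses. The median of all genes moved by -0.35 in WT drought, by -0.56 in OE drought, by -0.20 in OE against WT after drought and by -0.23 in the difference between the responses, and a member's change can be read relative to those shifts.

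**Figure D2:**
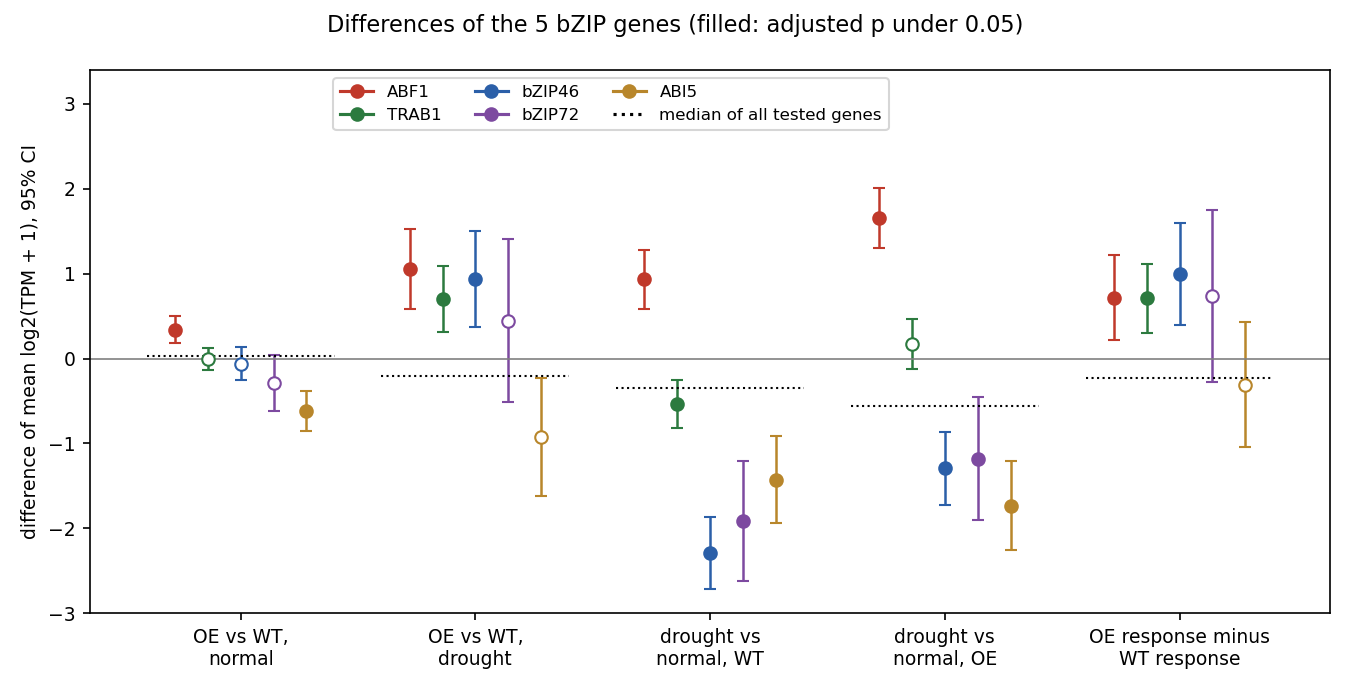
Differences of mean log2(TPM + 1) with 95% confidence intervals (vertical axis) for the 5 bZIP genes in 5 comparisons; filled points passed an adjusted p under 0.05, and dotted lines mark the median of all tested genes. ABF1 lies above 0 in every comparison, while bZIP46 and TRAB1 lie near 0 in normal conditions and above 0 in OE against WT after drought.

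The composition of the bZIP set differed between the groups. The 5 TPM values added up to 128.9, 128.6 and 126.4 in WT normal and 122.3 and 114.7 in OE normal libraries. After drought they added up to 103.7, 80.73 and 82.45 in WT and 187.4, 162.9 and 122.4 in OE. Every WT drought sum was thus below every normal sum, while the OE drought sums were above those of WT normal except for replicate 3. Both orders depended on the scaling. With median scaling, tried after the data were seen, the sum of WT drought replicate 1 (107.3) lay above the normal sums (93.36 to 104.8) and that of OE drought replicate 3 (141.0) lay above those of WT normal. ABF1 supplied 18.5 to 19.6% of the sum in WT normal and 26.0 to 26.5% in OE normal libraries. In drought its share was 49.2 to 59.6% in WT and 60.8 to 68.0% in OE. The ratio of ABF1 to ABI5 lay between 0.809 and 0.844 in watered WT roots and was 1.63 and 1.67 in watered OE roots. In drought it lay between 2.98 and 8.7 in WT and between 17.8 and 25.8 in OE. ABF1 and TRAB1 together made up 42.1 to 43.2% of the set in WT normal libraries and 85.2 to 87.8% in OE drought libraries. No test was made of these shares.

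**Figure D3:**
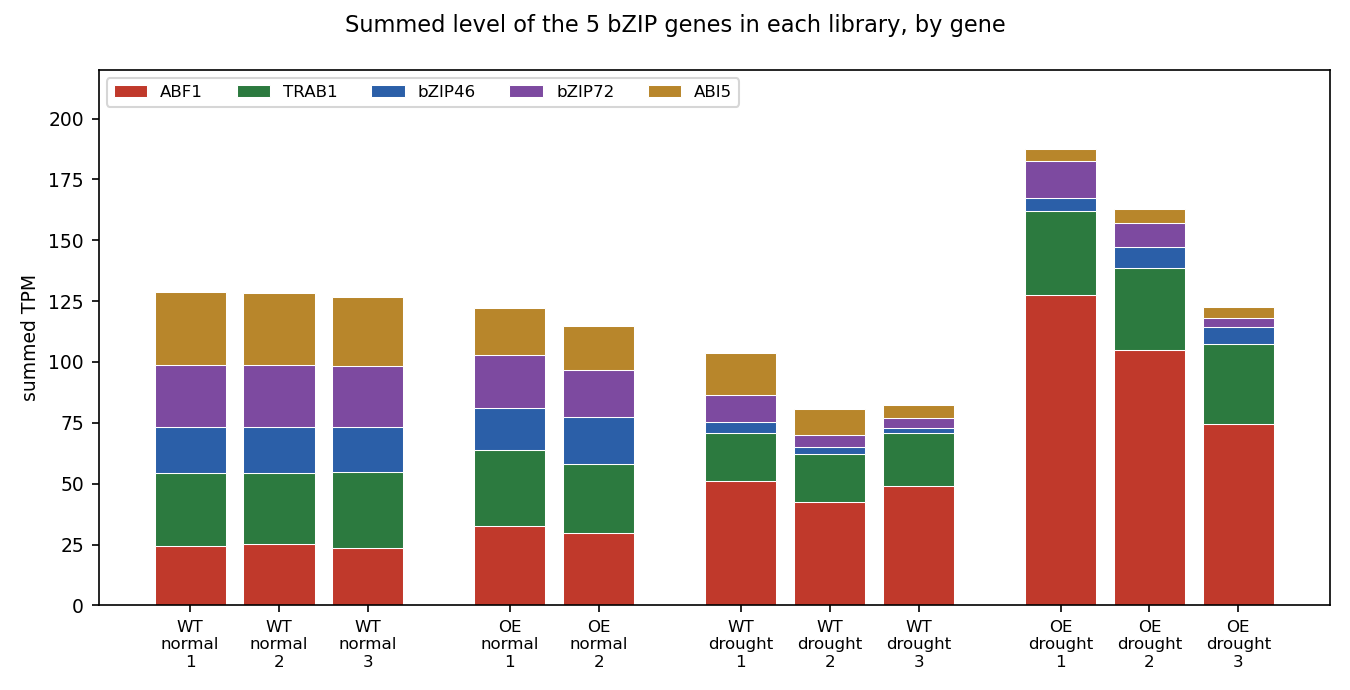
Summed RNA level in TPM of the 5 bZIP genes (vertical axis, from 0) in each of the 11 libraries, stacked by gene. The sums lie at 126.4 to 128.9 TPM in WT normal and 122.4 to 187.4 TPM in OE drought libraries, where ABF1 supplies 60.8 to 68.0%.

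Likeness was measured as the root mean square difference of log2(TPM + 1) over the 11 libraries after centring each gene on its mean, among 44 named candidates. ABF1 was most like the phosphatase gene PP2C06, at 0.199, with 17 of 23698 other tested genes closer, and then BZIP23, at 0.264, with 67 closer. BZIP23 encodes another ABA-responsive bZIP factor of rice. Its level was 58.5, 61.1 and 61.0 TPM in watered WT and 61.2 and 61.8 TPM in watered OE roots. In drought it was 132, 126 and 80.3 TPM in WT and 271, 215 and 233 TPM in OE. BZIP23 rose in drought in both genotypes and was higher in OE after drought by 1.11 (SE 0.198, adjusted p = 0.00397), while in normal conditions it differed by 0.03 (adjusted p = 0.769). Of the 7 listed bZIP relatives whose names were not accepted, those that were tested all passed as lower in drought in both genotypes. Of all tested genes, 43.7% were lower in WT drought and 52.5% in OE drought.

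bZIP46 and bZIP72 were nearest to each other, at 0.518, with 623 genes closer to bZIP46 and 199 closer to bZIP72. The next candidates were the kinase genes SAPK8 for bZIP46, at 0.702 with 4681 genes closer, and SAPK3 for bZIP72, at 0.629 with 1479 closer. ABI5 was nearest to SAPK3, at 0.292, with 82 genes closer, and next to CAB1R, at 0.509, with 2792 closer. TRAB1, whose own level varied least, with a root mean square of 0.28 about its mean, was nearest to SAPK4, at 0.212 with 407 genes closer, and SAPK7, at 0.31 with 1916 closer. The distance to SAPK7 was larger than the variation of TRAB1 about its own mean. Among the 5 members, ABF1 and ABI5 were the least alike pair, at 1.71.

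Of the genes that act with these factors, the clade A phosphatases, which restrain the SnRK2 kinases, were mostly higher in drought. Of 8 tested, 5 rose and none fell in WT drought, 7 rose and none fell in OE drought, and 6 were higher and none lower in OE against WT after drought, with a median log2 difference of 1.59 there. Of all tested genes, 20.5%, 20.8% and 6.97% were higher in these 3 comparisons. PP2C68 was at 32.4, 29.5 and 51.3 TPM in WT drought and 397, 354 and 271 TPM in OE drought libraries (3.17, SE 0.237, adjusted p = 3.84e-05). PP2C30 was also higher there (3.24, SE 0.32, adjusted p = 0.000168). In normal conditions 2 were higher in OE and 1 was lower, where 19% of all tested genes were higher and 12.2% lower. The lower call, for PP2C09, was lost in 9 of 19 alternative analyses.

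The SnRK2 kinases, which phosphorylate the bZIP factors, gave calls in both directions. Of 9 tested, 3 rose and 5 fell in WT drought, 3 rose and 3 fell in OE drought, and 2 were higher and 1 lower in OE against WT after drought, while 2 were higher and none lower in normal conditions. Of all tested genes, 20.5% rose and 43.7% fell in WT drought, and 20.8% rose and 52.5% fell in OE drought. Whether the kinase counts in drought differ from these shares was not tested. For OE against WT, 6.97% of all tested genes were higher and 13.8% lower after drought, and 19% and 12.2% in normal conditions. The call for SAPK3 after drought was lost in 6 of 19 alternative analyses. Those in normal conditions were lost in 7 of 19 for SAPK6 and 2 of 19 for SAPK2. SAPK1 was at 33.6, 33.0 and 58.5 TPM in WT drought and 138, 202 and 144 TPM in OE drought libraries (1.96, SE 0.272, adjusted p = 0.00108). SAPK3 fell in both genotypes, by 0.98 on the log2 scale in WT (adjusted p = 0.000417) and by 1.74 in OE (adjusted p = 5.35e-06).

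Dehydrin and LEA genes are typical targets of these factors. Of 7 tested, 6 rose in WT drought and all 7 in OE drought, and 5 were higher in OE against WT after drought, with none lower in any of these comparisons and 1 higher in normal conditions. Over all tested genes the shares higher were 20.5%, 20.8% and 6.97% in these 3 comparisons and 19% in normal conditions, where the call, for RAB16D, was lost in 7 of 19 alternative analyses. RAB16C belongs to a family of related dehydrin genes, and whether reads were split among its members was not tested. It was at 1.87, 20.0 and 2.99 TPM in WT drought and 169, 155 and 117 TPM in OE drought libraries (4.56, SE 0.655, adjusted p = 0.00129). Of 5 genes of ABA synthesis and breakdown, 3 rose and none fell with drought in each genotype, and 3 were higher and 1 lower in OE against WT after drought, beside the same shares of all tested genes. Among these 5, apart from NCED3, which belongs to synthesis, the genes that rose belong to breakdown: ABA8OX1 and ABA8OX3 in WT, ABA8OX2 and ABA8OX3 in OE. The 2 loci of this list whose names were not accepted, NCED4 and NCED5, belong to synthesis and also rose in both genotypes. Their log2 differences were 5.60 and 2.04 in WT and 6.30 and 4.26 in OE. Both also passed as higher in OE than in WT after drought (2.41 and 1.96). After drought, ABA8OX2 (log2 difference 1.77) and ABA8OX3 (1.97) were also higher in OE than in WT, and ABA8OX1 (-2.25) was lower. ABA8OX1 spread widely in WT drought, from 31.0 to 302 TPM, and overlapped the WT normal libraries, at 30.4 to 32.9 TPM. Its call in WT drought was lost in 1 of 19 alternative analyses. The calls for ABA8OX3 in WT drought and in OE against WT after drought were each lost in 4 of 19 alternative analyses. In normal conditions 1 of these 5 was higher and 1 lower in OE, where 19% of all tested genes were higher and 12.2% lower. NCED3, an enzyme of the rate-limiting step of ABA synthesis, was at 10.8, 11.7 and 11.5 TPM in WT drought and 88.5, 75.4 and 57.8 TPM in OE drought libraries (2.58, SE 0.226, adjusted p = 8.16e-05).

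Of 3 corepressor and adaptor genes, 2 rose with drought in each genotype, none fell, and 1 was higher in OE in each condition. The shares of all tested genes were 20.5% and 20.8% for rises with drought in WT and OE, and 19% and 6.97% for higher levels in OE in normal and drought conditions. The calls for TPR2 were lost in 5 of 19 alternative analyses for OE against WT in normal conditions and in 3 of 19 for drought in OE. MODD, the adaptor that holds back bZIP46, was at 28.1, 32.0 and 73.7 TPM in WT drought and 82.4, 78.2 and 78.7 TPM in OE drought libraries. WT drought replicate 3 was close to the OE libraries, and the call after drought (0.96, SE 0.294, adjusted p = 0.041) was lost in 13 of 19 alternative analyses. The rise of MODD in WT drought was 0.57 (adjusted p = 0.0375), a call lost in 11 of 19 alternatives, and 0.15 without WT drought replicate 3 (adjusted p = 0.285). Its rise in OE drought was 1.60 (SE 0.222, adjusted p = 6.77e-05), a call lost in 0 of 19 alternatives. Normal libraries were at 25.5 to 27.8 TPM in both genotypes.

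**Figure D4:**
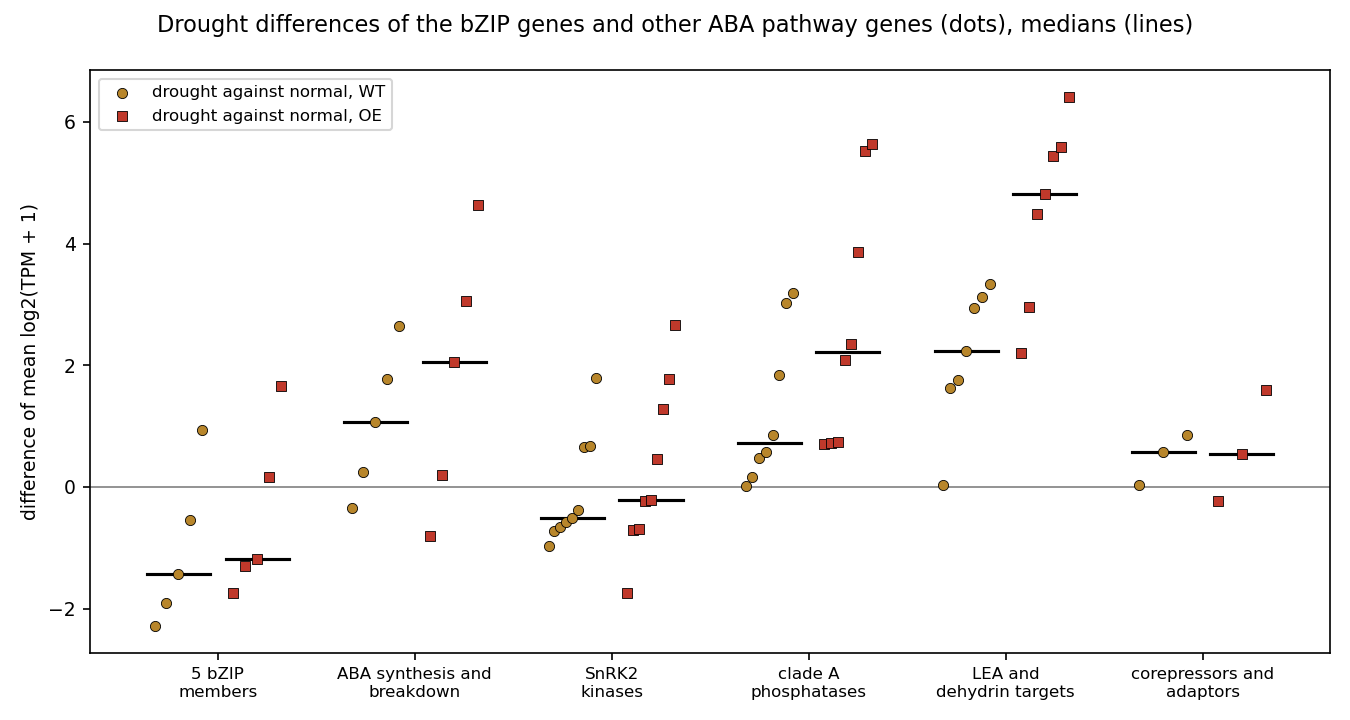
Differences of mean log2(TPM + 1) between drought and normal (vertical axis) for the tested genes of each list, with circles for WT, squares for OE and a line at each list's median. The medians of the bZIP genes are -1.43 in WT and -1.18 in OE, those of the phosphatases 0.71 and 2.21, and those of the LEA and dehydrin genes 2.23 and 4.82.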

How the data were processed

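RNA was sequenced from rice roots in 11 libraries of 4 groups, assigned from the labels. The authors deposited a gene table per library with TPM, FPKM and read coverage, per the file headers. The submitters' processing notes name StringTie 1.3.6, which writes such tables, and give no role for each tool; whether reads were counted by strand is not given in the sources used here. TPM has the same sum in each library, so a shift in a few abundant genes moves all others, and no counts or counting intervals were used.

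The members and gene lists were chosen with earlier results of these data known. The fit, by limma 3.58.1 (R 4.3.3), took log2(TPM + 1) of the 23699 genes at 1 TPM or more in at least 2 libraries. It used a mean per group over all 11 libraries, array weights with 1 weight per condition (the estimated variance of drought libraries was 10.7 times that of normal ones), trended empirical Bayes and 7 residual degrees of freedom. Tests were two-sided, with Benjamini-Hochberg adjustment over all tested genes and a threshold of 0.05 for 5 comparisons. The steps were tested on simulated data. Alternatives were no weights, only the libraries compared, a pseudocount of 0.1, no filter, a minimum of 5 TPM, median-ratio scaling, the deposited FPKM values, a replicate block and leaving out each library.

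The text names all 6 members, OsNMCP1, BZIP23, up to 3 genes per list by lowest adjusted p in a comparison, and the 2 most alike candidates per member. It gives only part of the genes that this rule allows. TPR3 and most single list genes appear in counts only, and the values of MODD, EMP1, IDEF1 and LFL1 are given for their known ties to the members. RCC3, AMT1-2 and PT2 are named beside the accepted root markers, and NCED4 and NCED5 beside NCED3, although their names were not accepted. A list gene took its name only where the reference gene table of assembly ASM3414082v1 held it on the same chromosome, within 5 Mb and at a length ratio of 0.9 to 1.1. By that rule 41 of 64 loci were accepted, no ABA receptor among them, and of the other bZIP relatives only BZIP23. The table holds TRAB1 and VP1 under these names, and the names of the other 4 members are those by which they were chosen. For bZIP46 the table held an alias only at a locus that did not match, and for ABF1, bZIP72 and ABI5 it held no symbol. The 18 chromatin accessibility samples were not analysed here. Likeness, shares and ranges were computed with Python 3.11.15.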

Additional observations from a re-analysis of the deposited data

Results flagged for a closer look

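For 3 of the 5 tested genes the drought response differed between the genotypes by the interaction term of the limma fit over 11 libraries. The response in OE exceeded that in WT by 1.00 for bZIP46, whose responses were -1.29 in OE and -2.29 in WT (adjusted p = 0.0257). It exceeded it by 0.71 for TRAB1, whose responses were 0.17 in OE and -0.54 in WT (adjusted p = 0.0208), and by 0.72 for ABF1, whose responses were 1.65 and 0.94 (adjusted p = 0.0446). The 3 results share all 11 libraries. None of them passed when WT drought replicate 2 or OE drought replicate 2 was left out.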

How the results depend on the processing

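Of 470 recomputed member results, 431 kept their direction and their side of the threshold, 30 lost a call, 4 gained 1 and 5 changed sign, all 5 from values that had not passed. TRAB1 in normal conditions was 0.018 with the replicate block and ran from -0.083 to 0.07 with a library left out. bZIP46 in normal conditions ran from -0.134 to 0.01 and the ABI5 interaction from -0.692 to 0.032. Without condition weights, 417 genes were called in OE against WT in normal conditions (7404 with weights) and 9144 after drought (4917), with 0 members called in normal conditions and 1 in the interaction. With a library left out, genes called ran from 1958 to 7428 in OE against WT after drought and from 2502 to 7114 in the interaction (4981), with 1 to 4 and 0 to 3 members. The lowest counts of genes came without OE drought replicate 2 and the highest without WT drought replicate 3, and WT drought replicates 1 and 2 (both comparisons) and OE drought replicate 1 (OE against WT) also moved them by over 1.5 times. Without WT drought replicate 3, the member calls after drought were kept and ABI5 joined them. The causes were not tested.

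Replicate numbers did not pair the libraries: deviations of same-numbered libraries correlated at -0.132 to 0.059 over 15 pairs, and 2 of 11 libraries correlated best with their own number. The replicate block left 4507 genes called in normal conditions. A fit on only the libraries compared was not made for the interaction, which needs all 11. For VP1, low depth and absence of RNA could not be told apart.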
